A study of Mus musculus with 12 samples.

Results

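The genes described here build, crosslink and cut the extracellular matrix: the fibrillar collagen chains Col1a1, Col1a2 and Col3a1, the matricellular proteins Sparc and Smoc2, the crosslinking enzyme Lox, the proteases Mmp14, Mmp9 and Adamts4, and the protease inhibitor Timp1. They were chosen by name, each from a probe set (a group of array probes for a transcript) annotated with that 1 symbol, and all 10 were found among 19938 genes. Each had 1 probe set, so no choice among probe sets was needed. Lox and Smoc2 were picked because they had differed in these same data, so their differences are described without a test. The other 8 were named with earlier results of these data known.

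In the spleen, collagen fibrils form the capsule, the trabeculae and the reticular fibres that fibroblastic reticular cells lay down and wrap. Lox oxidises lysines so that collagen and elastin chains can be joined. Matrix metalloproteinases (Mmp genes) and the aggrecanase Adamts4 cut matrix proteins, and Timp1 binds and blocks many metalloproteinases. Mmp14 sits in the cell membrane, whereas Mmp9 is stored in neutrophil granules as well as made by macrophages.

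RNA from whole spleens of C57BL/6 mice was measured on 12 Affymetrix arrays, 4 for each of 3 labelled groups of biological replicates. The mice labelled septic TLR-deficient had colon ascendens stent peritonitis, in which a stent in the bowel wall lets gut bacteria reach the abdomen, and their titles read Trifxmyd, after Trif and Myd88, adaptors of the Toll-like receptors (TLRs). Those labelled septic wildtype had the same operation, and those labelled untreated wildtype had none. The labels give no age, sex or exact alleles, no time after the operation and no untreated TLR-deficient group. Values are log2 levels per probe set as deposited, and 1 unit is a doubling. The titles carry running numbers: M5 to M8 are septic TLR-deficient replicates 1 to 4, M9 to M12 septic wildtype replicates 1 to 4 and M13 to M16 untreated replicates 1 to 4.

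The arrays did not group by their labels. Over all genes, the nearest array by correlation carried the same label for 5 of the 12. It came from the same set for 12 of 12 when the arrays are taken as M5 to M7 with M16, M8 to M11, and M12 to M15. Xist, the RNA that silences an X chromosome in female cells, stood at 3.73 to 4.33 on M12 to M15 and at 8.94 to 10.94 on the other 8 arrays, whatever their label. Eif2s3y, a gene of the Y chromosome, stood at 7.21 to 7.95 on M12 to M15 and at 2.48 to 4.5 elsewhere. These sets follow the likeness of the arrays and are not in the labels, so values are given by set as a description only, and no array was moved to another group. M8, M12 and M16 each lay with arrays of another label, so the labels of these arrays may be wrong. Whether they are was not tested, and every labelled mean and difference given here rests on the labels as they stand. M10 stood apart from every other array, with a correlation across genes of 0.765 to 0.809 against 0.956 to 0.991 among the other 11, and its values were less spread, with an SD of 1.52 against 2.11 to 2.24. Markers of spleen B cells, T cells and red pulp macrophages (8 of 9 listed were measured) averaged 8.13 to 9.95 per array, where the median of all probe sets was 5.22 to 5.54. Markers of pancreatic acinar cells (6 of 7 measured) averaged 8.83, 9.90 and 7.05 on M12, M14 and M16 and 4.40 to 5.83 on the other 9 arrays. In whole tissue, fewer cells of a type and less RNA per cell cannot be told apart.

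The sequences before the start sites of Timp1 and Mmp14 are shown because these genes went up and down together over the arrays, and that of Col1a2 because it did not follow them. Each runs 5′ to 3′ on the gene's strand, from 250 bases before to 50 bases after the RefSeq start in build GRCm38.p6. Such stretches were taken for 5 of the 10 genes. This count does not tell whether RefSeq has one for the others. Capitals mark every match, on either strand, to the letters searched. TGAGTCA was searched as the site of AP-1, a factor of stress and growth signals. Its variant, TGAGTAA, was added after the sequences had been read. The others were TATAAA, which lies before some start sites, the box known as CCAAT, and an NF-kappaB motif by its usual consensus. These motifs do not overlap within the stretches shown.
Timp1, chrX:20869916-20870215, + strand: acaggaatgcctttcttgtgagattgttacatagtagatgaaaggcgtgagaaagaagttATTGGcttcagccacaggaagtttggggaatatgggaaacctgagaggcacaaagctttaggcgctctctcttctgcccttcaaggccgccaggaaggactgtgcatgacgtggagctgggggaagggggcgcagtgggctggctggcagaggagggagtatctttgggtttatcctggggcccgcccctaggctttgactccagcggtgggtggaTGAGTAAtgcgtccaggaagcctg
Mmp14, chr14:54431348-54431647, + strand: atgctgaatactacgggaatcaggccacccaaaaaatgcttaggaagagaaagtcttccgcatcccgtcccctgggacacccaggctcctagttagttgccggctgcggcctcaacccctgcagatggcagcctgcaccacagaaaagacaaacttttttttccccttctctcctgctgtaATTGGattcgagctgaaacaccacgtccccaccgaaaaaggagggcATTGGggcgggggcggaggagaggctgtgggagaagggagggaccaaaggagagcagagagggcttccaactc
Col1a2, chr6:4505368-4505667, + strand: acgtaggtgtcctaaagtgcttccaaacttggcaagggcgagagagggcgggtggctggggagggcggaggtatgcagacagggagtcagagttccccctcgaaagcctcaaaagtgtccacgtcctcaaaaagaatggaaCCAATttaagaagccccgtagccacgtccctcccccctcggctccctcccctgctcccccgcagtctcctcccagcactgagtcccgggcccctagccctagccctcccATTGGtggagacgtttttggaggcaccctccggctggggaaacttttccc

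The Timp1 stretch held TGAGTAA, with its first base at 27 bases after the start, and 2.68% of all 32851 stretches of this length in the RefSeq table held those letters. It also held 1 CCAAT on the other strand. The Mmp14 and Col1a2 stretches held 2 CCAAT matches each, and 37.4% of all stretches held at least 1. TGAGTCA (5.20% of all stretches), TATAAA (13.6%) and the NF-kappaB motif (8.46%) were not among the letters of these 3. A match describes the letters and is not evidence that a factor binds.

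Over the 12 arrays the genes fell into unlike patterns. Timp1, Lox, Mmp14 and Adamts4 were high on M5, M6 and M16 and low on M8 to M11. The collagen chains had other orders, and Mmp9 was high on M12 to M15. Adamts4 spanned 4.83 log2 units between its lowest and highest array, a 28.4-fold range, Timp1 4.56 units (23.6-fold) and Lox 4.41 units (21.3-fold), where the median gene spanned 1.41. Mmp9 spanned 2.79 units, Mmp14 2.64, Col1a2 2.44, Col3a1 1.90, Col1a1 1.77, Smoc2 1.74 and Sparc 1.26.

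**Figure D1:**
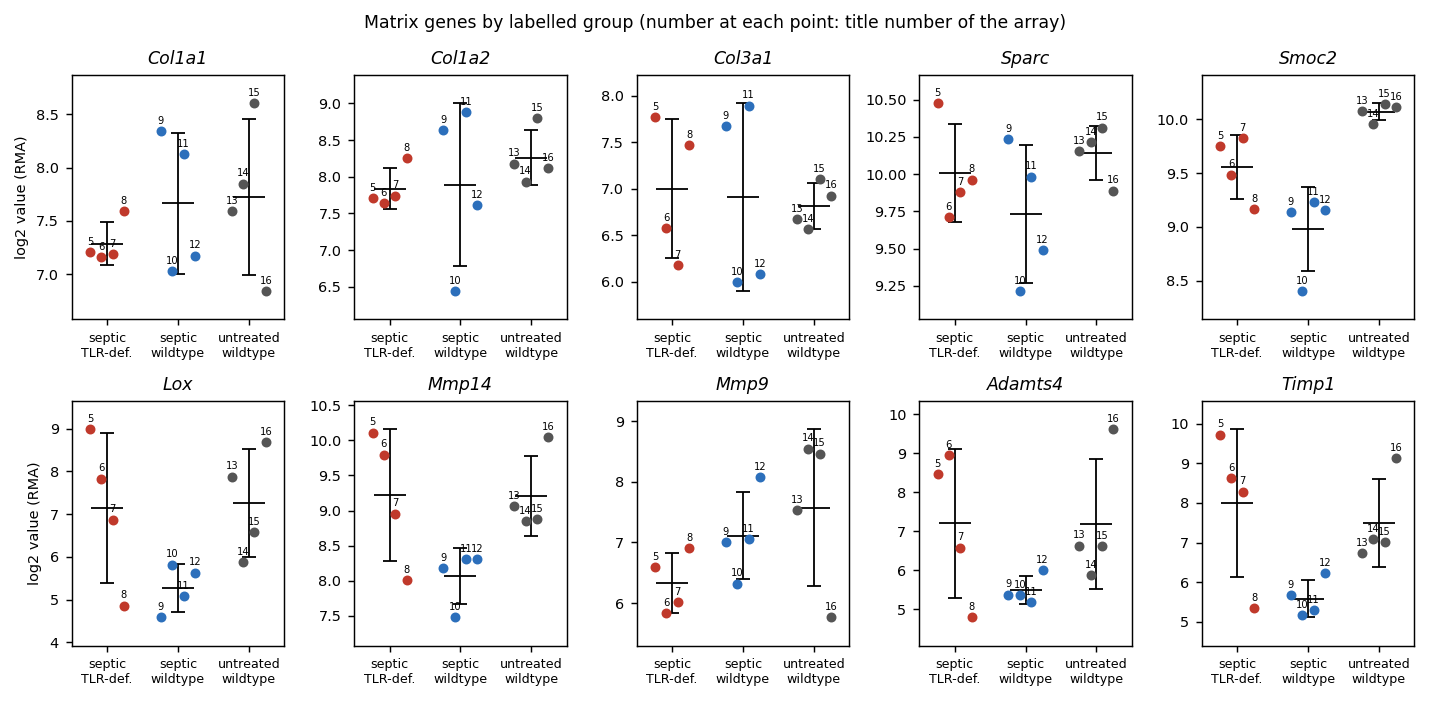
Log2 value of each of the 10 genes (vertical axis, RMA scale, own range in each panel) by labelled group (horizontal axis); points are arrays with their title numbers, the long bar is the mean and the whiskers are 1 SD over 4 arrays. M8 lies below the other septic TLR-deficient arrays and M16 above the other untreated arrays for Lox, Mmp14, Adamts4 and Timp1.

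As labelled, septic wildtype against untreated wildtype compares wildtype mice with and without the operation, and no sham-operated group is labelled. Septic TLR-deficient against septic wildtype compares genotypes under sepsis, and without an untreated TLR-deficient group a difference present before sepsis cannot be told apart. Septic TLR-deficient against untreated wildtype changes genotype and sepsis together. Low Xist with high Eif2s3y, the pattern of males, was seen on M13 to M15 among the untreated arrays. Among the septic arrays only M12, labelled septic wildtype, had it. Sex by these genes thus differed between the labelled groups, and its part in any difference was not tested. The 3 comparisons share their groups and are not independent of each other. In limma, fitted over 19938 genes with Benjamini-Hochberg adjustment, 0 of the 8 genes that were not picked for a difference passed an adjusted p of 0.05 in any comparison, and the background was the same, at 0% of all genes in each. Unadjusted p-values under 0.05 were reached by 2 of the 8 between the septic groups (Mmp14 and Timp1; 6.65% of all genes), by the same 2 between septic and untreated wildtype (8.81% of all genes), and by Mmp9 alone between septic TLR-deficient and untreated arrays (1.88% of all genes).

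Group means on the septic TLR-deficient arrays were higher than on the septic wildtype arrays for 7 of the 10 genes (43.9% of all genes) and higher than on the untreated arrays for 4 (51.9%). On the septic wildtype arrays they were higher than on the untreated for 1, Col3a1 (55.1% of all genes). The 4 arrays labelled septic wildtype all lay below the 4 labelled untreated for 4 of the 10 genes, namely Smoc2, Lox, Mmp14 and Timp1, against 2.74% of all genes in this direction. None of the 10 lay wholly above, as 3.68% of all genes did. Smoc2 and Lox had been picked for such differences. Between the septic groups 0 of the 10 were without overlap (2.05% of all genes higher and 1.76% lower), but without M8 these were 5, namely Smoc2, Lox, Mmp14, Adamts4 and Timp1, where 9.73% of all genes then did not overlap in either direction. Without M10 it was 1 (Mmp9; 6.26% of all genes), and without M11 it was 1 (Smoc2; 8.60%). Between septic TLR-deficient and untreated arrays Smoc2 alone was without overlap, lower on the TLR-deficient arrays as 0.998% of all genes were (2.40% were higher), joined by Col1a2 without M8 (8.06% of all genes in either direction) and by Mmp9 without M16 (10.4%).

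**Figure D2:**
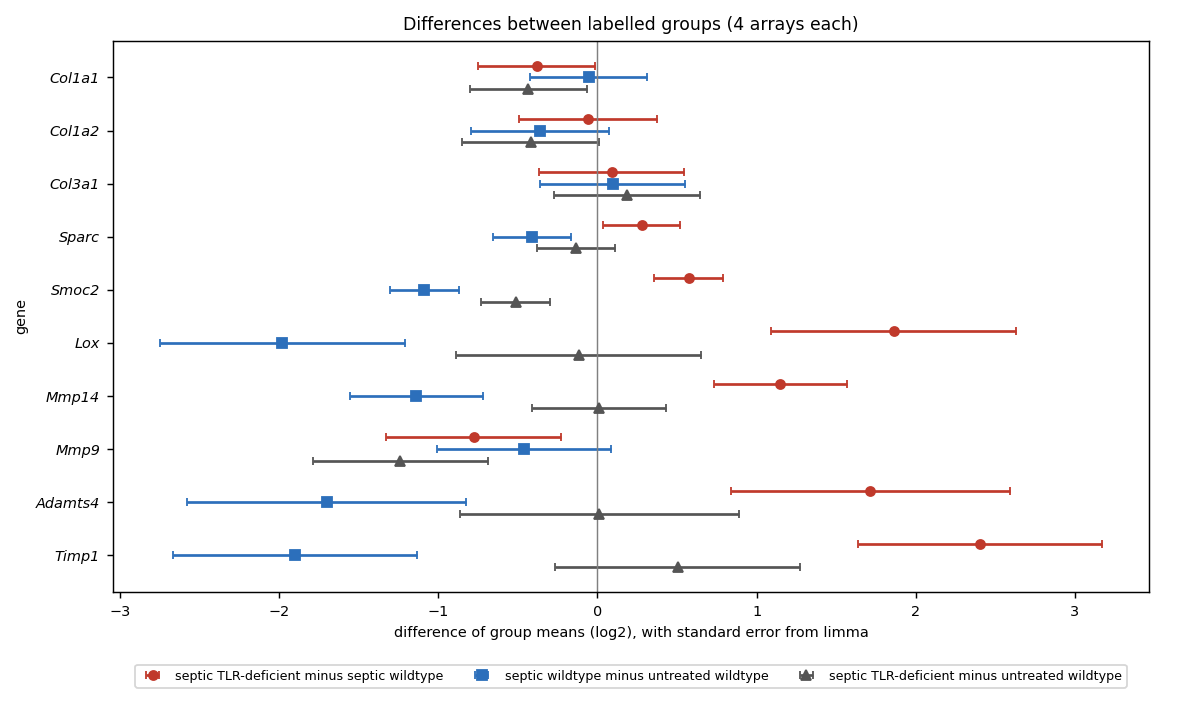
Difference of group means on the log2 scale (horizontal axis) for each gene (vertical axis) in the 3 comparisons of labelled groups, with the standard error from limma as whiskers, 4 arrays per group. Timp1, Lox, Adamts4 and Mmp14 have differences of 1.15 to 2.40 between the septic groups and of -1.14 to -1.98 between septic and untreated wildtype, while the collagens lie within 0.44 of 0.

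Col1a1, which encodes the main chain of type I collagen, stood at 7.20, 7.16, 7.19 and 7.59 on M5 to M8, at 8.34, 7.03, 8.12 and 7.17 on M9 to M12 and at 7.59, 7.85, 8.61 and 6.84 on M13 to M16. The highest values were on M9, M11 and M15, which carry different labels, and the lowest was on M16. The group means were 7.29 ± 0.21 (septic TLR-deficient), 7.67 ± 0.66 (septic wildtype) and 7.72 ± 0.73 (untreated; SD, n = 4 each), and the groups overlapped. The differences in limma were -0.38 between the septic groups (SE 0.37, adjusted p = 0.619; -0.59 to -0.16 with 1 array left out, the extremes without M10 and M9), -0.06 between septic and untreated wildtype (adjusted p = 0.928) and -0.44 between septic TLR-deficient and untreated arrays (adjusted p = 1).

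Col1a2, the partner chain of type I collagen, had 7.71, 7.64, 7.74 and 8.25 on M5 to M8, 8.64, 6.44, 8.89 and 7.61 on M9 to M12, and 8.18, 7.93, 8.80 and 8.11 on M13 to M16. Again M9, M11 and M15 were highest, and M10 was the lowest by more than 1 unit. The septic groups differed by -0.06 (SE 0.43, adjusted p = 0.947 in limma). Col3a1, the chain of type III collagen that makes up reticular fibres, had 7.77, 6.57, 6.18 and 7.47 on M5 to M8, 7.67, 5.99, 7.89 and 6.08 on M9 to M12, and 6.67, 6.56, 7.10 and 6.92 on M13 to M16. Its values on M5, M8, M9 and M11 exceeded all others, and the difference between the septic groups was 0.09 (SE 0.46, adjusted p = 0.922 in limma). For both genes the sign of this small difference turned when certain arrays were left out, among them M6, M9 and M11 for Col1a2 and M5, M8, M10 and M12 for Col3a1.

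Sparc, a secreted protein that binds collagen and aids fibril assembly, was even across the arrays, at 10.48, 9.71, 9.88 and 9.96 on M5 to M8, 10.23, 9.21, 9.98 and 9.49 on M9 to M12, and 10.16, 10.22, 10.31 and 9.89 on M13 to M16. M10 and M12 were its lowest arrays. The difference between septic and untreated wildtype was -0.41 (SE 0.24, adjusted p = 0.439 in limma), and -0.24 without M10. Smoc2, a matricellular relative of Sparc, had 9.75, 9.49, 9.83 and 9.16 on M5 to M8, 9.14, 8.40, 9.23 and 9.16 on M9 to M12, and 10.08, 9.95, 10.14 and 10.11 on M13 to M16. The untreated arrays lay within 0.19 units of each other and above every septic array, M16 included. Group means were 9.56 ± 0.30, 8.98 ± 0.39 and 10.07 ± 0.08 (SD, n = 4 each), so that septic wildtype minus untreated was -1.09, or -0.90 without M10.

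Lox had 8.99, 7.83, 6.87 and 4.86 on M5 to M8, 4.58, 5.82, 5.08 and 5.63 on M9 to M12, and 7.88, 5.88, 6.59 and 8.68 on M13 to M16. M5 and M16 were highest, and M8, labelled TLR-deficient, lay among the septic wildtype arrays. The means were 7.14 ± 1.75, 5.28 ± 0.56 and 7.26 ± 1.26 (SD, n = 4 each), with septic wildtype minus untreated at -1.98 and septic TLR-deficient minus septic wildtype at 1.86. Septic TLR-deficient minus untreated was -0.12, and it turned to 0.64 without M8, 0.36 without M16 and 0.089 without M13.

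Mmp14, the membrane-anchored metalloproteinase that cuts fibrillar collagen and activates pro-Mmp2, had 10.11, 9.80, 8.96 and 8.01 on M5 to M8, 8.18, 7.48, 8.31 and 8.31 on M9 to M12, and 9.07, 8.85, 8.87 and 10.04 on M13 to M16. Only M5, M6 and M16 passed 9.5. Septic TLR-deficient arrays averaged 9.22 ± 0.94, septic wildtype 8.07 ± 0.40 and untreated 9.21 ± 0.57 (SD, n = 4 each). Septic TLR-deficient minus septic wildtype was 1.15 (SE 0.42, adjusted p = 0.590 in limma), with 3 of the 4 TLR-deficient arrays above every septic wildtype array. Septic minus untreated wildtype was -1.14 (SE 0.42, adjusted p = 0.439).

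Adamts4, a protease that cuts aggrecan and versican, had 8.47, 8.96, 6.58 and 4.79 on M5 to M8, 5.38, 5.37, 5.19 and 6.01 on M9 to M12, and 6.64, 5.88, 6.62 and 9.62 on M13 to M16. The labelled TLR-deficient group thus held both the lowest array (M8) and 2 of the 3 highest. Its mean of 7.20 ± 1.90 compared with 5.49 ± 0.36 and 7.19 ± 1.66 in the other groups (SD, n = 4 each). Septic minus untreated wildtype was -1.70 (SE 0.88, adjusted p = 0.439 in limma), or -0.89 without M16.

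Timp1 had 9.72, 8.62, 8.28 and 5.35 on M5 to M8, 5.67, 5.16, 5.30 and 6.23 on M9 to M12, and 6.72, 7.08, 7.01 and 9.14 on M13 to M16. No array lay between 7.08 and 8.28, so M5 to M7 and M16 stood clear above the rest. M8 to M11 were the 4 lowest. The label means were 7.99 ± 1.87, 5.59 ± 0.48 and 7.49 ± 1.11 (SD, n = 4 each). The difference between the septic groups was 2.40 (SE 0.77, adjusted p = 0.590 in limma), and 3.29 without M8. Septic minus untreated wildtype was -1.90 (SE 0.77, adjusted p = 0.439), or -1.35 without M16. Timp1 lies on the X chromosome, and the part of the Xist difference between arrays in its values was not tested.

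Mmp9, the gelatinase of neutrophils and macrophages, had another order, at 6.59, 5.84, 6.02 and 6.90 on M5 to M8, 7.0, 6.32, 7.05 and 8.08 on M9 to M12, and 7.53, 8.55, 8.47 and 5.76 on M13 to M16. M12 to M15 were its 4 highest arrays, and M16 its lowest. The label means were 6.34 ± 0.49, 7.12 ± 0.72 and 7.58 ± 1.30 (SD, n = 4 each), and septic TLR-deficient minus untreated was -1.24 (SE 0.55, adjusted p = 1 in limma), or -1.84 without M16. The acinar markers averaged 8.83, 5.67, 9.90 and 4.45 on M12 to M15, and their part in the Mmp9 values was not tested.

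**Figure D3:**
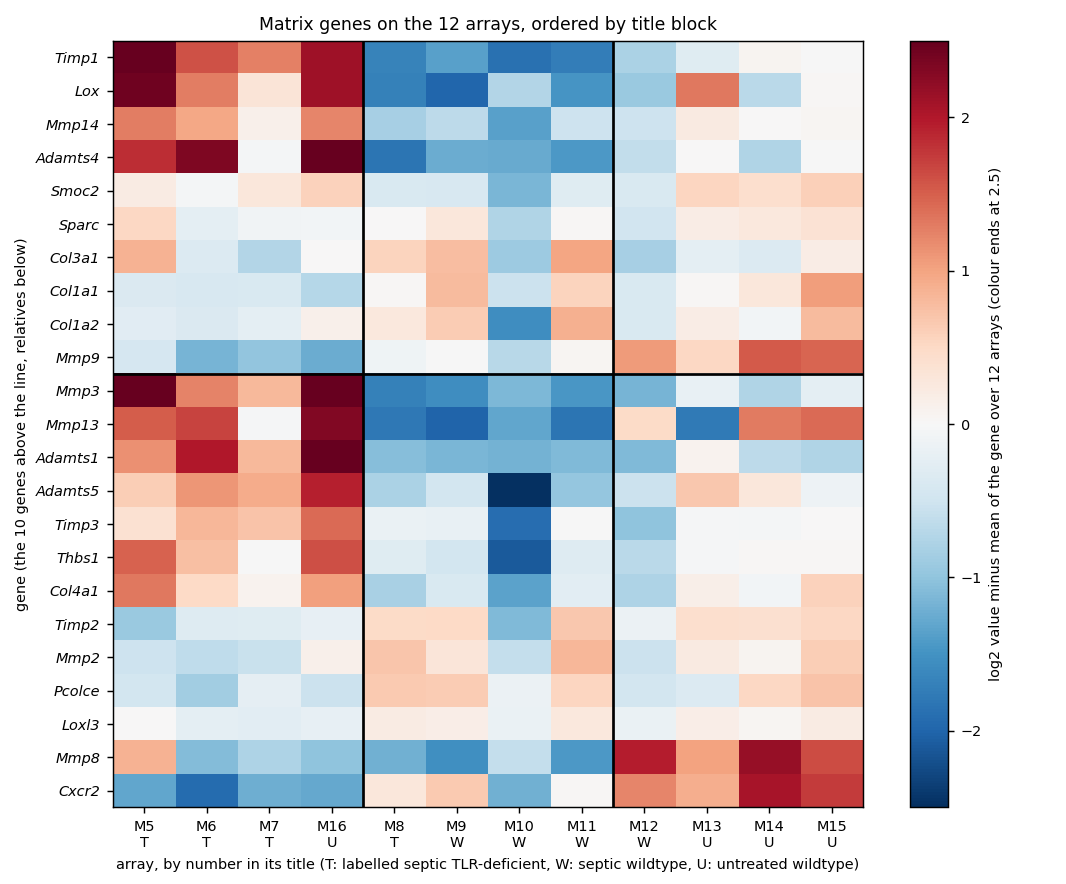
Each array's departure from the gene's own 12-array mean on the log2 scale (colour, red above and blue below the mean) for the 10 genes (upper rows) and 13 related or marker genes (lower rows), with arrays in columns by title number and letters for their labels (T, W and U). The vertical lines separate M5 to M7 with M16, M8 to M11, and M12 to M15; Timp1, Mmp3 and Adamts1 are red throughout the first set and blue throughout the second, and Mmp9, Mmp8 and Cxcr2 are red in the third.

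Read by set, M5 to M7 and M16 all lay above the other 8 arrays for Timp1, as for 1.72% of all genes, and for no other of the 10, while none lay below the rest there (1.85% of all genes). M8 to M11 all lay below the rest for Timp1 and Adamts4 (2.12% of all genes) and above for none (1.18%). M12 to M15 all lay above the rest for Mmp9 (0.757%) and below for none (0.818%). Because the sets were drawn from the likeness of these arrays, nothing is read from these counts. The array of each set that carries a different label followed the set to an unequal degree. M8 lay within the range of M9 to M11, which M10 widens, for 9 of the 10 genes and within the range of M5 to M7 for 2. Of M9 to M11, M10 alone lay below M8 for Col1a1, Col1a2, Col3a1, Sparc, Mmp14 and Mmp9. M16 lay within the range of M5 to M7 for 5 genes and within that of M13 to M15 for 3. M12 did the reverse, with 2 genes inside the range of M13 to M15 and 7 inside that of M9 to M11, a range that M10 widens. The shares of all genes were not computed for these counts.

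Across the 12 arrays, which fall into the 3 sets and so are not independent points, Timp1 had a Pearson's r of 0.95 with Mmp14, 0.91 with Adamts4 and 0.89 with Lox. Mmp14 had 0.92 with Adamts4 and 0.89 with Lox. Among the collagen chains r was 0.75 for Col1a1 with Col1a2, 0.70 for Col1a2 with Col3a1 and 0.52 for Col1a1 with Col3a1. Between Col1a1 and Timp1 it was -0.45, and between Mmp9 and Timp1 -0.38. Without M10 these last values were -0.63 and -0.51. The values describe these arrays and carry no test.

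**Figure D4:**
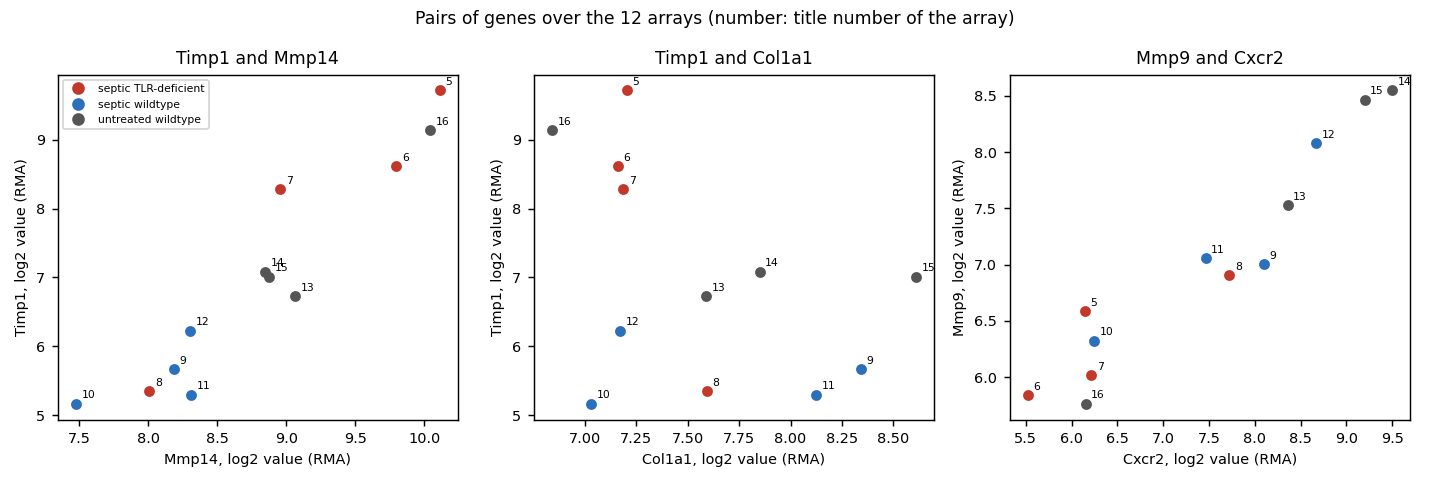
Log2 values of 3 pairs of genes on the 12 arrays, each point an array with its title number and coloured by label. Timp1 rises with Mmp14 (r of 0.95), M5 to M7 and M16 combine high Timp1 with low Col1a1, and Mmp9 rises with Cxcr2 (r of 0.96). Col1a1 is as low on M10 and M12 (7.03 and 7.17), where Timp1 is low (5.16 and 6.23).

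The genes most like each pattern were taken from all 19938, as the 3 with the highest r over 12 arrays. For Timp1 they were Sh3pxd2b, an adaptor of invading cell protrusions (0.97), Il1rn, the interleukin-1 receptor antagonist (0.97), and Steap4, a metalloreductase (0.97). For Lox they were Pla1a (0.95), Ier3 (0.95) and Niban2 (0.94). Smoc2 was most like Foxj3, the lysosomal protease Ctsl and the antioxidant enzyme Gpx3 (0.93, 0.93 and 0.92). For Col1a1 they were Sbk1, Ttc7 and Slc24a3 (0.95, 0.90 and 0.90), and for Col3a1 Lats2, Shroom3 and Acss2 (0.92, 0.90 and 0.90). Mmp9 was most like Spint1 (0.97), Nxpe5 (0.96) and Cxcr2, the chemokine receptor of neutrophils (0.96). Without M10 none of these genes kept all 3. Pla1a stayed first for Lox (0.98), and Spint1 and Nxpe5 stayed for Mmp9, joined by Adam8 (0.96). Sbk1 stayed for Col1a1 (0.95), joined by Nkd1 (0.95) and Ptk7 (0.94). Col3a1 was then most like Wdr1, Sh3bp5 and Itgb2 (0.92, 0.92 and 0.90). Smoc2 then was most like C1qtnf1, Lgmn and Repin1 (0.90, 0.89 and 0.88), and Timp1 most like Ier3, Procr and Fas (0.98 each).

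Cxcr2 stood at 8.36 to 9.50 on M12 to M15, at 6.25 to 8.10 on M8 to M11 and at 5.53 to 6.22 on M5 to M7 and M16. The markers named in this and the next paragraph were chosen after their values were seen. Of the 10 neutrophil markers, 4 had an r over 0.5 with Mmp9, among them Ly6g (0.91), a surface marker of mouse neutrophils. The granule genes Camp and Ngp did not, at -0.37 and -0.04. Averaged over the list, neutrophil markers stood at 6.61 to 8.12 on septic TLR-deficient, 6.50 to 7.86 on septic wildtype and 6.41 to 8.03 on untreated arrays. Their part in the Mmp9 values was not tested.

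Markers of fibroblastic reticular cells (9 of 11 measured) averaged 7.77 to 8.04, 6.85 to 7.94 and 8.02 to 8.39 per array in the same groups, with M10 lowest, and those of smooth muscle and mural cells (8 of 8) 6.33 to 6.88, 6.22 to 7.06 and 6.62 to 6.85. Col1a1 had an r of 0.84 with Cnn1, a contractile protein of smooth muscle, and 0.81 with Des, the intermediate filament of muscle and stromal cells. These were the highest of that list, where r with Col1a1 ran from 0.11 (Rgs5) to 0.84 with a median of 0.55. With the markers of fibroblastic reticular cells it ran from -0.10 (Cxcl13) to 0.68 (Tcf21) with a median of 0.36. Cd14, the lipopolysaccharide co-receptor of myeloid cells, stood at 9.65 to 11.26 on M5 to M7 and M16, 5.71 to 6.75 on M8 to M11 and 6.58 to 8.41 on M12 to M15, the same order of sets as Timp1. Of the 7 measured markers of monocytes and inflammatory macrophages to which it belongs, 3 had an r over 0.5 with Timp1, and the list ran from -0.72 (Ccr2) to 0.89 (Il1b) with a median of 0.48. The part of any of these cell types in the matrix genes was not tested.

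Other genes of the matrix were taken from 6 lists of collagens, collagen-processing enzymes, matricellular proteins, proteases, protease inhibitors and TGF-beta signalling (86 of 93 genes measured). In limma 0 of the 86 passed in any comparison, as for all genes. The median difference between septic and untreated wildtype was -0.33 over the 86, -0.44 over the 8 genes not picked for their difference and 0.07 over all genes, with lower means on the septic arrays for 62 of the 86. Between the septic groups the medians were 0.09, 0.18 and -0.06, and between septic TLR-deficient and untreated arrays -0.12, -0.06 and 0.01, in that order. Between septic and untreated wildtype the all-gene median was -0.12 for genes above percentile 25 of mean level and 0.02 without M10. M10 was the lowest array for every list but the collagens: 6.10 (processing), 6.03 (matricellular), 5.78 (proteases), 5.83 (inhibitors) and 6.46 (TGF-beta). List medians without M10 were not computed.

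The 13 other collagens had medians of 0.01 between the septic groups and 0.05 between septic and untreated wildtype. Col4a1, a chain of basement membranes, was at 7.64 ± 0.89, 6.68 ± 0.48 and 7.80 ± 0.49 in septic TLR-deficient, septic wildtype and untreated arrays (SD, n = 4 each), and its r with Mmp14 was 0.95. Col5a1 and Col6a1, chains of fibril-nucleating and beaded-filament collagens, differed by 0.15 and 0.20 between septic and untreated wildtype, and Col14a1, a fibril-associated collagen, by 0.19. None of these collagens passed the test. Col6a1 stood at 7.20 on M10 and at 5.75 to 6.86 on the other septic wildtype arrays.

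Of the relatives of Lox, Loxl2 had no probe set with 1 symbol. Loxl1, which crosslinks elastin, averaged 5.88 ± 0.27, 5.96 ± 0.37 and 6.40 ± 0.31 in the 3 groups, and Loxl3 5.49 ± 0.22, 5.59 ± 0.22 and 5.62 ± 0.19 (SD, n = 4 each). Loxl4 differed by 0.12 between septic and untreated wildtype, where Lox differed by -1.98. Loxl4 stood at 5.17 on M10 and at 4.41 to 4.84 on the other septic wildtype arrays. Among processing enzymes, the collagen chaperone Serpinh1 differed by -0.17 and Pcolce, an enhancer of procollagen cleavage, by 0.06. Serpinh1 stood at 5.53 on M10 and at 6.14 to 7.11 on the other septic wildtype arrays.

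Of the matricellular proteins, Thbs1, which activates latent TGF-beta, averaged 9.01 ± 0.80, 7.65 ± 0.83 and 8.94 ± 0.80 (SD, n = 4 each). It stood at 6.43 on M10 and at 7.86 to 8.22 on the other septic wildtype arrays. For Thbs1 the septic groups did not overlap (2.05% of all genes in this direction), nor did septic and untreated wildtype (2.74%), but the adjusted p in limma was 0.590 and 0.439. Between the septic groups the gap was narrow, with M8, whose label may be wrong, at 8.229 and M11 at 8.217. Fn1, fibronectin, differed by -0.66 between septic and untreated wildtype (SE 0.31, adjusted p = 0.439 in limma) and Sparcl1 by -0.57. Fn1 stood at 7.17 on M10 and at 7.59 to 8.43 on the other septic wildtype arrays. Sparcl1 stood at 7.34 on M10 and at 8.34 to 9.39 on the other septic wildtype arrays. The Smoc2 paralogue Smoc1 differed by 0.45, the opposite sign, with a septic wildtype mean of 4.74 ± 0.64 (SD, n = 4). Smoc1 stood at 5.67 on M10 and at 4.63, 4.41 and 4.26 on M9, M11 and M12. The untreated arrays ran from 4.22 to 4.38. Dcn, the proteoglycan decorin, differed by -0.36, Lum by 0.25 and Tnc by -0.09.

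Among 18 other proteases the median was -0.65 between septic and untreated wildtype and 0.35 between the septic groups. Mmp3, a stromelysin, averaged 7.09 ± 2.17, 4.77 ± 0.21 and 6.43 ± 1.47 (SD, n = 4 each). It stood at 6.91 to 9.69 on M5 to M7 and M16, 4.40 to 4.97 on M8 to M11 and 4.93 to 5.92 on M12 to M15, and its r with Timp1 was 0.96. Adamts1 ran from 7.74 to 9.86 in the first of these sets, with the other 8 arrays between 5.74 and 7.0. Adamts5, an aggrecanase like Adamts4, differed by 1.62 between the septic groups (SE 0.57, adjusted p = 0.590 in limma) and by -1.86 between septic and untreated wildtype (SE 0.57, adjusted p = 0.439). Adamts5 stood at 4.685 on M10 and at 6.407 to 6.925 on the other septic wildtype arrays.

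Mmp13, a collagenase, averaged 7.39 ± 1.62, 5.89 ± 1.13 and 7.87 ± 1.78 (SD, n = 4 each). Mmp2, the gelatinase that Mmp14 activates, differed by only -0.25 between the septic groups and -0.26 between septic and untreated wildtype. Mmp8, the neutrophil collagenase, was high where Mmp9 was, at 7.53 to 8.70 on M12 to M15 against 4.99 to 7.39 elsewhere, and its r with Mmp9 was 0.77.

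Among the other inhibitors, Timp3, which binds to the matrix, averaged 8.83 ± 0.45, 7.61 ± 0.87 and 8.72 ± 0.72 (SD, n = 4 each). It stood at 8.77 to 9.80 on M5 to M7 and M16 against 6.48 to 8.39 on the other 8 arrays, M10 being the lowest. Timp2 stood at 7.44 to 8.18 in that set and at 7.27 to 9.05 on the other 8 arrays, M10 being the lowest, and differed by -0.26 between the septic groups and by -0.31 between septic and untreated wildtype. Tgfb1, the ligand that drives collagen synthesis, differed by -0.02 and -0.48 in the same comparisons, its feedback inhibitor Smad7 by 0.27 and -0.35, and Inhba, a chain of activin, by -0.08 and 0.22. None of these passed the test. On M10, Tgfb1, Smad7 and Inhba stood at 7.71, 4.84 and 6.11. On the other septic wildtype arrays they ran from 9.02 to 9.31, 6.42 to 6.91 and 4.17 to 4.77.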

How the data were processed

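Per the labels' protocols, spleen RNA was amplified as cDNA, fragmented and biotinylated with Affymetrix kits; a further sentence of the extraction label concerns an unrelated mutant and was not used. The deposited values are log2 levels per probe set, made per the submitters' processing notes by RMA in Affymetrix Expression Console; versions and genome build are not given in the sources used here. RMA subtracts background, brings arrays to 1 scale and summarises probes. The values ran from 1.33 to 13.79. Of the probe sets with 1 symbol, the one with the highest mean over 12 arrays stood for its gene. One mean per labelled group was fitted over 12 arrays with limma 3.58.1 in R 4.3.3, adjusted over 19938 genes, and tested on simulated data. An adjusted p under 0.05 counted as passed. The number of arrays limits the precision. Gene lists are cell markers or relatives of the 10 genes, and the relatives named were chosen as the closest to the 10, not for how they moved; genes most like a pattern are the 3 with the highest r. The members and lists were chosen with earlier results of these data known. Promoter sequences are RefSeq's. Arrays were not paired by replicate number in the main fit. Correlations of same-numbered deviations from the labelled means ran from -0.54 to 0.14.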

Additional observations from a re-analysis of the deposited data

Results flagged for a closer look

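In each of the 30 combinations of a gene and a labelled group, the gap between the array at either end and its neighbour was set against the range of the 4 arrays (Dixon's test at the 95% level). The gap was past the critical value in 5, where chance gives about 1 in 20, or 1.5. On septic TLR-deficient replicate 4 (M8), Col1a1 stood at 7.59 with the other 3 arrays at 7.16 to 7.20, and Col1a2 at 8.25 with the others at 7.64 to 7.74. On septic wildtype replicate 2 (M10), the array that stood apart over all genes, Smoc2 was at 8.40 with the others at 9.14 to 9.23, and Mmp14 at 7.48 with the others at 8.18 to 8.31. On untreated replicate 4 (M16), Timp1 was at 9.14 with the others at 6.72 to 7.08.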

How the results depend on the processing

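The listed alternatives comprised median centring, a second quantile normalization, a filter at percentile 25, the mean of probe sets, fitting only the groups compared, array weights, the replicate block and leaving out each array. Replicates 1 to 3 only was added after seeing the data; it leaves out M8, M12 and M16 and was chosen with the likeness of the arrays in view, so its calls are not independent evidence. Of 600 recomputed gene differences 561 kept their direction and, for the tested genes, their side of the threshold. For Lox and Smoc2 a shift of less than 1 SD was asked instead. Many of the 600 could not change in size. The filter, the mean of probe sets, the fit of only the groups compared and the replicate block leave the difference as it was. So does leaving out an array of the group not compared. With the replicate block 0 genes passed in each comparison, as without it. In deviations from the labelled means, 0 of 12 arrays were best correlated with their own number. These deviations rest on the labels as they stand, and M8, M12 and M16, which lay with another label, are all replicate 4. Whether the numbers share anything cannot be told from this.

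Further quantile normalization gave 1, 2 and 0 genes of the 10 without overlap (septic groups, septic against untreated wildtype, septic TLR-deficient against untreated), where 3.38%, 3.40% and 2.90% of all genes did not overlap. The 1 was Mmp9, and the 2 were Timp1 and Smoc2, which was picked for its difference. Between the septic groups it turned Col3a1 to -0.050 and Sparc to -0.011, and between septic and untreated wildtype it turned Col1a1 to 0.33; Smoc2 moved to 0.23 and -0.65 in these comparisons. Array weights turned Col3a1 to -0.41 between the septic groups and Col1a2 to 0.094 between septic and untreated wildtype, where 1 gene of 19938 passed, Smoc2, which had been picked for its difference. They also turned Lox to 0.63 between septic TLR-deficient and untreated arrays. Replicates 1 to 3 only gave 141, 9 and 33 genes passed in the 3 comparisons and 5, 6 and 5 of the 10 without overlap (16.8%, 22.2% and 22.0% of all genes). Those without overlap included the picked Smoc2 in all 3 comparisons and the picked Lox in the first 2. Between the septic groups 1 of the 8 tested genes passed, Timp1 at 3.50 (adjusted p = 0.00303 in limma), and Col3a1 turned to -0.34; Lox turned to 1.12 between septic TLR-deficient and untreated arrays. The cause of these changes was not tested.

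Leaving out arrays gave 0 to 5 of the 10 genes without overlap between the septic groups (5.10% to 9.73% of all genes), 4 to 5 between septic and untreated wildtype (7.68% to 16.6%) and 1 to 2 between septic TLR-deficient and untreated arrays (4.58% to 10.4%), and 0 genes passed throughout. Smoc2 and Lox, picked for their differences, were always among the 4 to 5, and Smoc2 always among the 1 to 2. Both were also among the 5 between the septic groups, so nothing is read from these counts beside the shares. Differences that changed sign ranged from -0.54 to 0.27 for Col1a2 and -0.22 to 0.42 for Col3a1 between the septic groups. Between septic and untreated wildtype they ranged from -0.35 to 0.24 for Col1a1, -0.69 to 0.12 for Col1a2 and -0.23 to 0.40 for Col3a1. Between septic TLR-deficient and untreated arrays they ranged from -0.073 to 0.46 for Col3a1, -0.74 to 0.64 for Lox, -0.29 to 0.41 for Mmp14, -0.57 to 0.82 for Adamts4 and -0.073 to 1.39 for Timp1.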

Other observations

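Markers of endothelium (8 of 8 measured) averaged 6.47 to 7.09 per array on septic TLR-deficient, 5.90 to 7.20 on septic wildtype and 7.06 to 7.29 on untreated arrays. Those of adipocytes (5 of 6) ran from 4.15 to 5.81 and those of the capsule and mesothelium (6 of 6) from 4.75 to 5.46 over the 12 arrays, both highest on M10. Markers of monocytes and inflammatory macrophages (7 of 8) ran from 6.30 to 8.13. In limma 0 of the genes in these lists passed in any comparison.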
